A study of Mus musculus with 2 samples.

Results

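The levels of 7 neurofilament and axon growth genes were followed in single cells of the mouse eye cup of e15.5 embryos. The genes were Nefl, Nefm, Nefh, Ina, Stmn2, Gap43 and Sncg, chosen by symbol from the 31053 genes of the count matrices, and each symbol matched 1 gene. The control library came from Myrf fl/fl embryos and the mutant library from Rx>cre Myrf fl/fl embryos, so both carry the floxed Myrf alleles and the mutant alone carries Cre driven by Rx, a gene of the early eye field. For each library 3 eye cups, freed of cornea, lens and optic nerve, were pooled. There was 1 library per genotype, cells are not replicates, and no comparison below carries a test. Levels are unique molecular identifiers (UMIs) of a gene per 1000000 UMIs of a cell class (CPM), and the 95% intervals given for levels, shares and ratios cover counting error only.

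Neurofilaments are the intermediate filaments of axons. They are built from a light, a medium and a heavy subunit, encoded by Nefl, Nefm and Nefh, together with alpha-internexin, encoded by Ina, which appears early in many neurons, while the heavy subunit is typical of mature axons. Stmn2 encodes stathmin-2, a tubulin-binding protein of growing axons, Gap43 a growth cone membrane protein, and Sncg gamma-synuclein, a protein abundant in retinal ganglion cells. Ganglion cells are the projection neurons of the retina, while Schwann precursors are glia that travel along peripheral nerves.

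Of the 7 genes, 3 lie on chromosome 14 of GRCm38 in the GENCODE M21 annotation. Nefl occupies 14:68083863-68089095 on the plus strand with 4 exons. Nefm spans 14:68082590-68124846 on the minus strand because 1 of its 2 annotated transcripts runs across Nefl, and its other transcript is separated from the end of Nefl by 30187 bases. The 2 genes lie on opposite strands, and reads of the overlap could be parted only by a count that used strand. Sncg lies at 14:34370274-34374789 on the minus strand with 5 exons. The remaining genes are Nefh at 11:4938754-4948064 (minus strand, 4 exons), Ina at 19:47014698-47025327 (plus strand, 3 exons), Stmn2 at 3:8509360-8561606 (plus strand) and Gap43 at 16:42248442-42340651 (minus strand).

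The 120 bases upstream of the RefSeq start (GRCm38.p6) are shown for Sncg and Ina, since these genes marked the narrowest and one of the broadest patterns among the retinal neurons described below and RefSeq promoters were at hand for these 2 of the 7. Where the GENCODE start lay further upstream than the RefSeq start, the stretch ended there instead. The Sncg stretch is 14:34374790-34374909 and the Ina stretch is 19:47014561-47014680, each read 5′ to 3′ on the strand of its gene, with matches to a searched motif in capitals. The Sncg stretch directly meets its GENCODE start, and 17 bases lie between the Ina stretch and its own.
Sncg: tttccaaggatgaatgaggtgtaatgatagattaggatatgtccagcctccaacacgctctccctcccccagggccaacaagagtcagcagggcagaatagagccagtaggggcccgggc
Ina: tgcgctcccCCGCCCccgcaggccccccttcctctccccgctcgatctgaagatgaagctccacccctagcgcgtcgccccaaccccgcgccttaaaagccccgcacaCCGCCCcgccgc
The motifs searched on both strands were TATAAA for the TATA box, then GGGCGG for the GC box, then CCAAT for the CAAT box, and lastly CANNTG for the E-box bound by proneural factors. The Ina stretch held GGGCGG on its opposite strand, read as CCGCCC from positions 10 and 109, and no other match, while the Sncg stretch held none of the 4. Among 32851 RefSeq promoters, the 120 bases directly upstream of the RefSeq start held TATAAA in 6.34%, GGGCGG in 26.5%, CCAAT in 21.3% and CANNTG in 40.2%. The Ina stretch was 73.3% G or C and the Sncg stretch 55%, against a median of 54.2%.

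The libraries held 13017 control and 13880 mutant barcodes with median depths of 9339 and 8702 UMIs, and 69 barcodes occurred in both. After filters and doublet removal, 11544 control and 12668 mutant cells fell into 39 clusters, of which 32 were given a class name from marker genes, and the clustering used none of the 7 genes. The other 7 clusters, with 25.7% of control and 23.7% of mutant cells, stayed unnamed. The libraries differed in sex, with a Y-linked UMI in 3 control cells and in 41.8% of mutant cells, so the full libraries differ in sex as well as genotype, and values from only cells that had an Xist UMI and no Y-linked UMI are given beside the main ones for some of the results below. Myrf gave 293 control and 57 mutant UMIs in the cluster led by the pigment gene Pmel (76.0 and 29.97 CPM), and 3 and 7 UMIs in the ganglion cell-like class. The tags mark the 3′ ends of transcripts and need not lie in the floxed part of Myrf. Hemoglobin-rich erythroid-like cells, which should lack the 7 genes, gave the level of free RNA: in the control and the mutant, Stmn2 stood there at 14.9 and 16.8 CPM, Gap43 at 5.52 and 5.88, Sncg at 5.13 and 4.26, Nefm at 1.58 and 2.65, Nefl at 1.45 and 1.76, and Ina at 0.526 and 2.20. Nefh had no UMI there.

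The first question was which retinal neurons carried these transcripts. The ganglion cell-like class was named from Pou4f2, Isl1, Rbpms and other markers outside the 7 genes, and held 582 control and 688 mutant cells (5.04% and 5.43%) in clusters 13 and 23. Stmn2 was the most abundant of the 7 there, with a control level of 4396 CPM (4352 to 4440) and a mutant level of 4388 CPM (4349 to 4428). Gap43 followed at 3102 and 3379 CPM, and Sncg at 2296 and 2386 CPM. The neurofilament subunits were lower, with Nefl at 1517 and 1557 CPM, Ina at 1374 and 1358 CPM, and Nefm at 1210 and 1212 CPM. These are tag counts, 1 tag end per transcript, and were not divided by transcript length. The order of the 6 genes was the same in both libraries and no neighbours in it had overlapping intervals.

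Nefh stood apart from the other 6 genes. It gave 13 UMIs in the 582 control ganglion cell-like cells and 12 in the 688 mutant ones, which is 1.496 CPM (0.797 to 2.56) and 1.13 CPM (0.582 to 1.97). Over all kept cells it gave 19 and 18 UMIs. Photoreceptor precursor-like cells gave 4 and 3 UMIs (1.195 and 0.645 CPM), with intervals that overlapped those of ganglion cell-like cells. In the amacrine-like class, 0 control UMIs and 1 mutant UMI were seen, and none was seen in horizontal-like cells, where a count of 0 allows up to 6.15 CPM for the control cells and 4.01 CPM for the mutant cells, taking 3 counts as the limit.

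**Figure D1:**
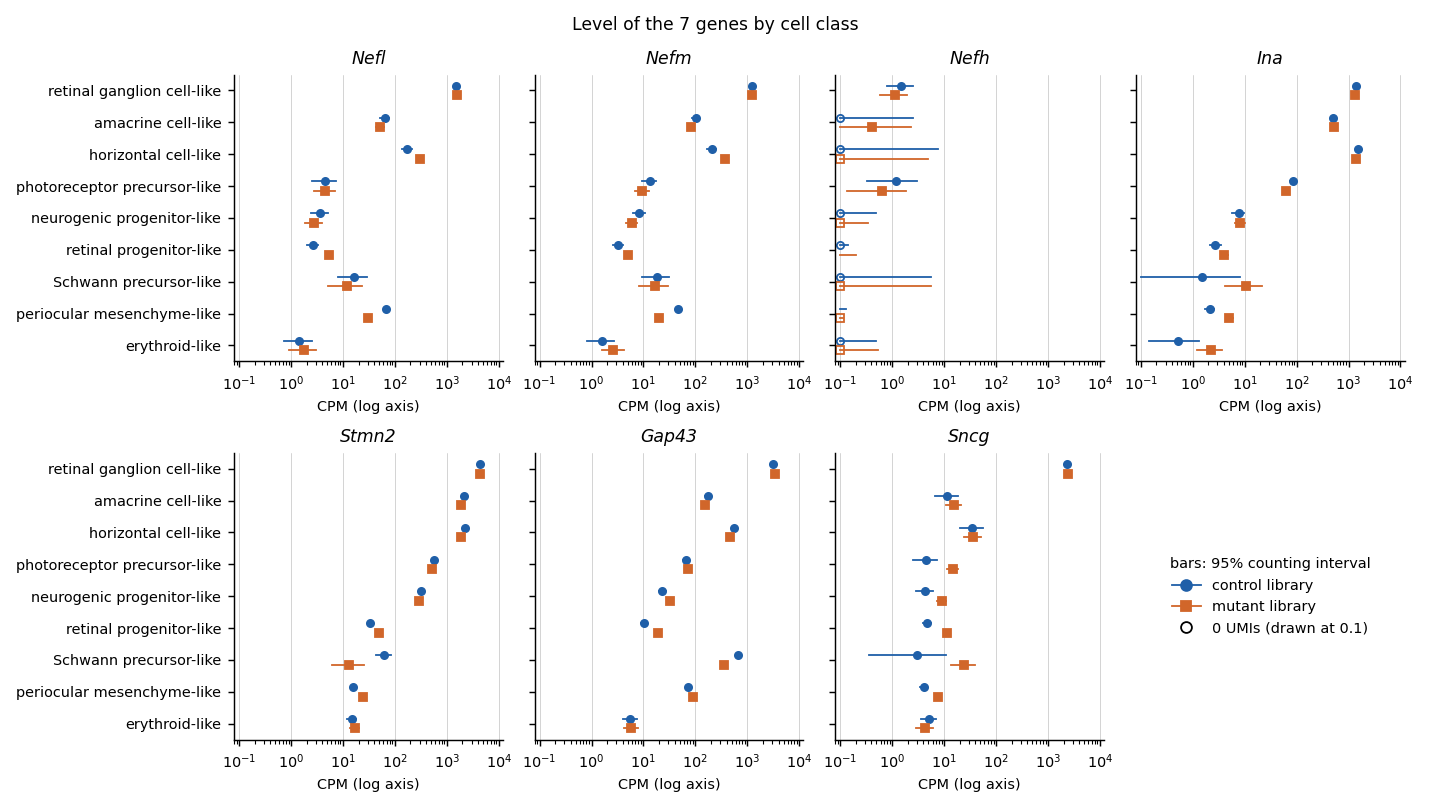
Level of each of the 7 genes in each cell class, in CPM on a log axis, with control and mutant side by side and bars for the exact 95% Poisson intervals. Stmn2 and Ina stay high in amacrine-like and horizontal-like cells, while Sncg lies above 2000 CPM in ganglion cell-like cells and below 40 CPM in the other retinal classes.

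The other retinal neuron-like classes (amacrine, horizontal and photoreceptor precursor) held 706 control and 1049 mutant cells together. Against these, 5 of the 6 genes with enough UMIs were at least 4-fold higher in ganglion cell-like cells in the control and 6 of 6 in the mutant, where 3.15% and 3.06% of all genes were. Clusters differ by construction, so these ratios are descriptions of the class. Sncg differed most, 249-fold (188 to 337) in the control and 140-fold (118 to 167) in the mutant. Nefl was 41.4- and 32.8-fold higher, Gap43 22.0- and 25.5-fold, and Nefm 21.7- and 18.2-fold. Ina and Stmn2 had far flatter profiles, at 4.12- and 4.06-fold for Ina and 3.76- and 4.11-fold for Stmn2. Over the 6 genes the log2 ratio had a median of 4.45 in the control and 4.43 in the mutant, beside -0.21 and -0.21 over all genes.

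Amacrine-like cells, of which there were 194 and 322, held Stmn2 at 2165 and 1899 CPM, and 95.7% and 95.8% of them had a Stmn2 UMI after each cell was thinned to 2000 UMIs. Ina stood at 501 and 534 CPM and was seen in 50% and 47.9% of thinned cells. Gap43 reached 172 and 153 CPM, Nefm 101 and 82.4 CPM, and Nefl 64.1 and 51.6 CPM. Stmn2 was thus detected in nearly every amacrine-like cell. At the Ina level, a thinned cell without an Ina UMI need not lack the transcript. Sncg, at 11.5 and 15.4 CPM, had 64.7% and 62.2% of its UMIs in the 5 richest cells of each library.

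Horizontal-like cells, of which there were 77 and 116, were close to ganglion cell-like cells in Ina. Alpha-internexin transcripts stood at 1527 CPM (1420 to 1641) and 1393 CPM (1309 to 1480), and the ratio of ganglion cell-like to horizontal-like cells was 0.899 (0.835 to 0.970) and 0.975 (0.916 to 1.04). Every control cell and 98.3% of the mutant cells had an Ina UMI. Stmn2 stood at 2222 and 1878 CPM and Gap43 at 562 and 454 CPM. The light and medium subunits were lower by a wide margin, with Nefl at 174 and 301 CPM and Nefm at 209 and 370 CPM, and Sncg was at 34.9 and 36.1 CPM.

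Photoreceptor precursor-like cells, of which there were 435 and 611, held Stmn2 at 573 and 510 CPM, Ina at 84.3 and 62.1 CPM, and Gap43 at 66.0 and 70.5 CPM. Nefm stood at 13.1 and 9.46 CPM and Nefl at 4.48 and 4.51 CPM, so the light and medium subunits were scarce in this class. The neurogenic progenitor-like class, marked by Atoh7 and Neurog2, held Stmn2 at 321 and 295 CPM, with a UMI in 33.6% and 32.5% of thinned cells. Its Gap43 level was 23.2 and 32.2 CPM, and its Nefl level 3.61 and 2.77 CPM. In retinal progenitor-like cells Stmn2 stood at 33.7 and 48.7 CPM and the other 6 genes below 20 CPM. Stmn2 thus had the highest level of the 7 genes in each of these 3 classes, the retinal classes with the fewest transcripts of the set.

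The 4 neurofilament genes were compared by their shares of the pooled subunit UMIs, which removes the class total from the comparison. In ganglion cell-like cells, 35650 control and 44012 mutant subunit UMIs divided into 37.0% and 37.7% Nefl, 33.5% (33.0 to 34.0) and 32.9% (32.5 to 33.3) Ina, 29.5% and 29.4% Nefm, and 0.0365% and 0.0273% Nefh. Near-even shares of Nefl, Ina and Nefm were thus seen in both libraries over the pooled class. The shares differed between its clusters 13 and 23. Nefm held 32.8% in cluster 13 and 26.7% in cluster 23 in the control, and 32.9% and 26.3% in the mutant. Ina held 30.4% and 36.1% in the control, and 30.2% and 35.2% in the mutant. In amacrine-like cells Ina alone held 75.2% (72.4 to 77.9) and 79.9% (77.8 to 81.8). In horizontal-like cells it held 79.9% (77.2 to 82.5) and 67.5% (65.1 to 69.8), and in photoreceptor precursor-like cells 81.7% (77.3 to 85.7) and 81.0% (76.5 to 84.9). Ina was thus the main subunit of the pool in each of these 3 classes, whose cells send no axon into the optic nerve.

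**Figure D2:**
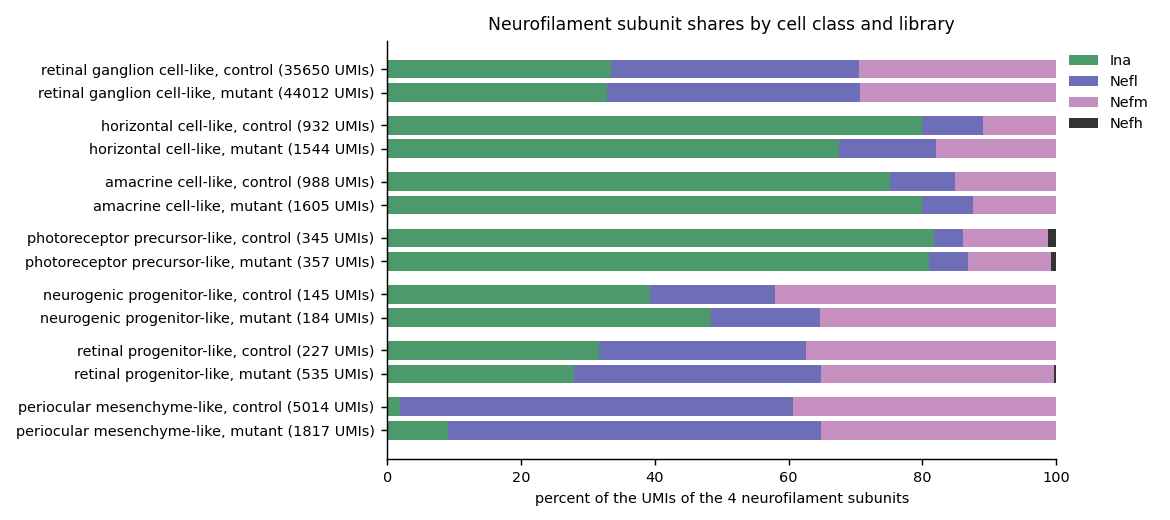
Share of the UMIs of the 4 neurofilament genes held by each gene, in percent, for each class and library, with the number of subunit UMIs given for each bar. Ina takes 33.5 and 32.9% of the pool in ganglion cell-like cells and 67.5 to 81.7% in amacrine-like, horizontal-like and photoreceptor precursor-like cells, while Nefh is barely visible anywhere.

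Within the ganglion cell-like class the 7 genes varied widely from cell to cell. After thinning to 2000 UMIs, the median cell had 5 of the 7 genes in both libraries, and 44.3% of control and 45.1% of mutant cells had exactly 6, while 5.40% and 4.11% had none. A Stmn2 UMI was seen in 93.03% and 94.6% of thinned cells and a Gap43 UMI in 80.3% and 86.2%. Nefl was seen in 59.6% and 63.4%, Nefm in 61.3% and 64.0%, Ina in 64.3% and 64.3%, and Sncg in 58.7% and 63.7%. The share for Nefl in thinned erythroid-like cells was 0.219% and 0.248%, at median depths of 16758 and 16802 UMIs before thinning against 14687 and 15253 UMIs in ganglion cell-like cells. Of thinned control cells with a Nefl UMI, 88.3% had Nefm, 91.2% Ina, 98.0% Gap43 and 88.3% Sncg. Among those without one, the shares were 21.6%, 24.6%, 54.3% and 15.1%. In the mutant, cells without a Nefl UMI had Gap43 in 64.3%. Nefl, Nefm, Ina and Sncg were thus seen mostly in the same cells, whereas Gap43 was also common in cells without Nefl. Spearman's rho over 574 control and 681 mutant thinned cells was 0.704 and 0.636 for Nefl with Nefm, 0.725 and 0.691 for Nefl with Sncg, and 0.548 and 0.492 for Nefl with Stmn2.

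Clusters 13 and 23 differed in these genes although neither was built from them. Cluster 23 held 165 control and 208 mutant cells, and 81.4% of its thinned cells in each library had 6 of the 7 genes, against 29.8% and 29.6% in cluster 13. In cluster 23 against cluster 13, Sncg was 4.01- and 3.70-fold higher, Ina 2.76- and 2.48-fold, and Nefl 2.35- and 2.23-fold. Gap43 was 2.14- and 1.84-fold higher, Nefm 1.89- and 1.71-fold, and Stmn2 1.31- and 1.18-fold. Of the 6 genes, 5 were thus at least 1.5-fold higher, where 20.3% of all genes in the control and 18.9% in the mutant were.

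To place the genes in sequence, the 1255 ganglion cell-like cells of at least 2000 UMIs were thinned and ordered by the first principal component of 4970 genes, which left out the 7 genes, the naming markers and the list of other axon genes. The component held 1.39% of the variance and was turned so that Atoh7, the proneural factor of ganglion cell precursors, lay at the low end. Ribosomal protein genes and Mdk led the low end, and S100a10, Tmsb10, Meg3 and Gng3 led the high end. Cells were cut into 5 bins of equal size over both libraries, and bins are ranges of the order, not cell types. From 92.8% to 100% of the cells of the first 3 bins were of cluster 13, while 90% of control and 93.9% of mutant cells of the last bin were of cluster 23, so the order and the 2 clusters largely describe the same difference. Depth before thinning increased with the order, from bin medians of 11097 to 19902 UMIs in the control and 9994 to 18971 UMIs in the mutant, and its part in the pattern was not tested. Atoh7 went from 7184 to 58.3 CPM between the first and last control bin, and from 5976 to 57.3 CPM between those of the mutant. Pou4f2, a naming marker of the class, stood at 453 and 533 CPM in the first bin and 727 and 577 CPM in the second. In the last bin it stood at 154 and 99.2 CPM, in 25% and 16.0% of cells against 60.9% and 61.0% in the first.

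Stmn2 was already present in the first bin, at 1215 and 1272 CPM, in 70.3% (61.6 to 78.1) and 74.0% (65.3 to 81.5) of its cells. It reached 3509 and 3605 CPM in the second bin and stood at 4746 and 4786 CPM in the last. Gap43 began lower, at 246 and 325 CPM in 25% and 32.5% of the cells of the first bin, and climbed to 1120 and 1629 CPM in the second and 4929 and 4908 CPM in the fourth. Stmn2 and Gap43 were thus the 2 genes with the smallest span between the first and last bin, 3.91- and 3.76-fold for Stmn2 and 18.1- and 13.7-fold for Gap43, and both were at their highest in the fourth bin.

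The neurofilament genes and Sncg were nearly absent from the first bin. Nefl had 2 UMIs there in each library (7.81 and 8.13 CPM), in 0.781% and 0.813% of cells, and then stood at 338 and 339 CPM in the second bin, 1571 and 1301 in the third, 2400 and 2342 in the fourth and 2442 and 2611 in the last. Sncg followed the same course from 7.81 and 8.13 CPM to 222 and 329, 1637 and 1757, 3662 and 3716, and 4058 and 4309 CPM. Ina went from 27.3 and 20.3 CPM in the first bin to 231 and 273 in the second and 2471 and 2637 in the last. Nefm went from 23.4 and 56.9 CPM to 417 and 434 in the second bin and 1967 and 1901 in the last. Each of these 4 genes was higher at every step in both libraries. This did not hold for control Nefl and Nefm and mutant Sncg without doublet removal, for control Nefl and Nefm with cells of at least 10000 UMIs, or for mutant Nefm with cells thinned to 5000 UMIs. Without doublet removal 1047 cells were ordered, Nefl stood at 500 and 574 CPM in the first bin, and its span was 4.51- and 4.52-fold. Under that setting Stmn2 stood at 3866 and 3664 CPM in the first bin, with spans of 1.14- and 1.18-fold, and Gap43 had spans of 2.98- and 2.46-fold. In the second bin, where Stmn2 was in 95.4% and 100% of cells and Gap43 in 81.5% and 88.1%, Nefl was in 33.3% and 33.6%, Nefm in 36.1% and 42.0%, Ina in 30.6% and 32.2%, and Sncg in 23.1% and 30.8%. Nefh had at most 1 UMI in any bin.

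**Figure D3:**
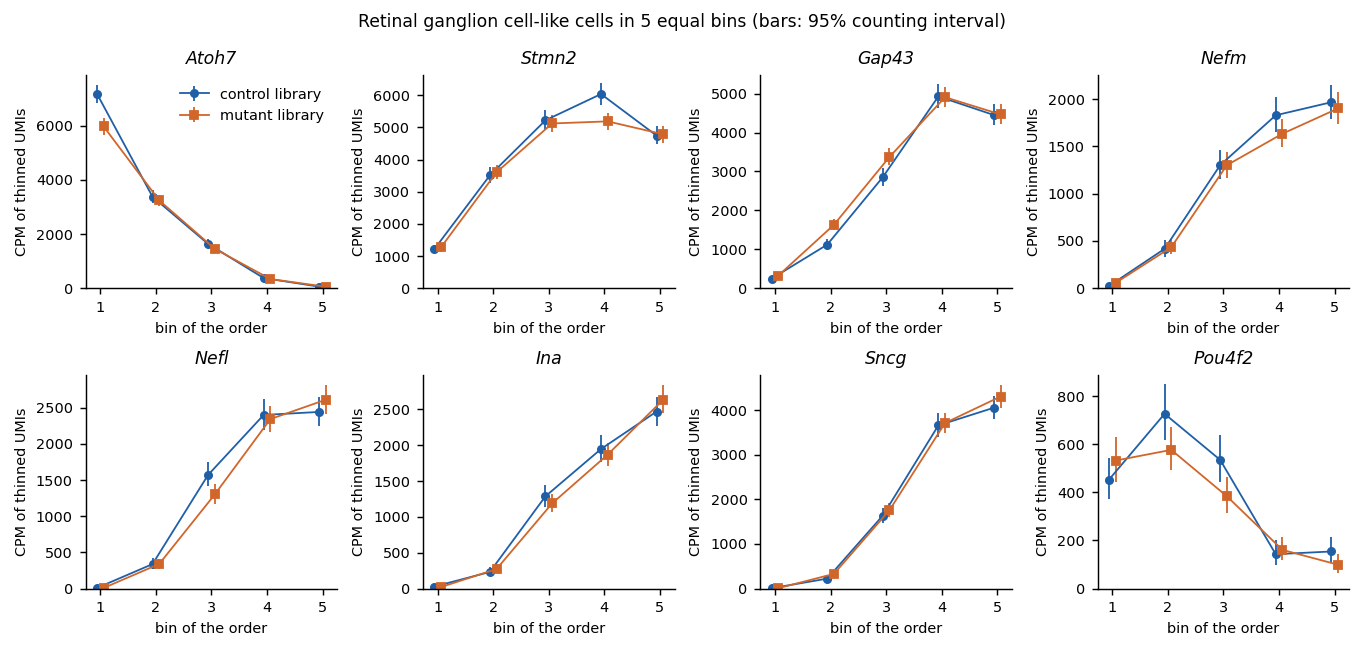
Level of each gene in the 5 bins of the order of ganglion cell-like cells, as CPM of thinned counts with exact 95% Poisson intervals, one line per library. Stmn2 is above 1000 CPM in the first bin, Gap43 climbs next, and Nefl, Nefm, Ina and Sncg start below 60 CPM and end at 1901 CPM or more.

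The genotypes were then compared within the ganglion cell-like class. Of the 7 genes, 0 were past 1.5-fold in either direction, where 3.95% of 12365 genes were at least 1.5-fold higher in the mutant and 2.94% at least 1.5-fold lower. The mutant-to-control ratio was 0.998 (0.985 to 1.01) for Stmn2, 1.00 (0.976 to 1.03) for Nefm, 0.989 (0.965 to 1.01) for Ina and 1.03 (1.00 to 1.05) for Nefl. Sncg was at 1.04 (1.02 to 1.06) and Gap43 at 1.09 (1.07 to 1.11), whereas Nefh, on 13 and 12 UMIs, was at 0.753 (0.314 to 1.79). The ratio of Gap43 was 1.16 (1.13 to 1.18) in cluster 13 and 0.996 (0.974 to 1.02) in cluster 23. Over the 7 genes the log2 ratio had a median of 0.00, beside -0.02 over all genes, whose 5th and 95th percentiles were -0.46 and 0.52. With cells that had an Xist UMI and no Y-linked UMI alone, Nefh had no value and the median of the other genes was 0.02. Differences of the size seen for Gap43 lay outside the counting error and well inside the spread of all genes, and between-embryo spread could not be measured with 1 library per genotype.

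Across the 7 classes of retinal cells and Schwann precursor-like cells, 40 of the 49 pairs of gene and class had at least 20 UMIs over both libraries. Of these pairs, 8 were at least 1.5-fold higher in the mutant and 2 at least 1.5-fold lower, where from 3.08% to 10% of all genes in a class were higher and from 2.12% to 10.4% lower. The split was 6 and 4 when every cell was weighted equally or free RNA was subtracted. The 8 were Nefl and Nefm in horizontal-like cells, Sncg in photoreceptor precursor-like and neurogenic progenitor-like cells, and Nefl, Nefm, Gap43 and Sncg in retinal progenitor-like cells. The 2 lower ones were Stmn2 and Gap43 in Schwann precursor-like cells. Of the 8, some were under 1.5-fold in an alternative: Nefl in horizontal-like cells with at least 1000 genes per cell (log2 0.51), Nefl in retinal progenitor-like cells without doublet removal (0.57), Nefm there in 4 alternatives (down to 0.25), and Sncg in neurogenic progenitor-like cells in 2 (0.45 and 0.43). In amacrine-like cells 0 of 6 genes were past 1.5-fold, where 7.17% of all genes were higher and 5.1% lower. This class was made up differently in the libraries, since cluster 39, which had Isl1 among its leading genes and high Ina, Nefl and Nefm, and scored nearly as high for horizontal as for amacrine markers, held 16 of its 194 control cells and 71 of its 322 mutant cells. Without cluster 39, an alternative added after the data were seen, the log2 ratios were -1.08 for Nefl (79 and 51 UMIs) and -1.04 for Nefm (136 and 90 UMIs), both past 1.5-fold, and -0.24 for Ina, -0.35 for Gap43 and -0.20 for Stmn2. Over all alternatives with a value in amacrine-like cells, the log2 ratio ran from -2.00 to 0.00 for Nefl and -1.05 to -0.14 for Nefm. It ran from -0.99 to 0.53 for Ina, -0.72 to 0.41 for Gap43 and -0.50 to 0.99 for Sncg. Each of these genes thus passed 1.5-fold in some alternative, while Stmn2 (-0.29 to -0.13) did not.

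**Figure D4:**
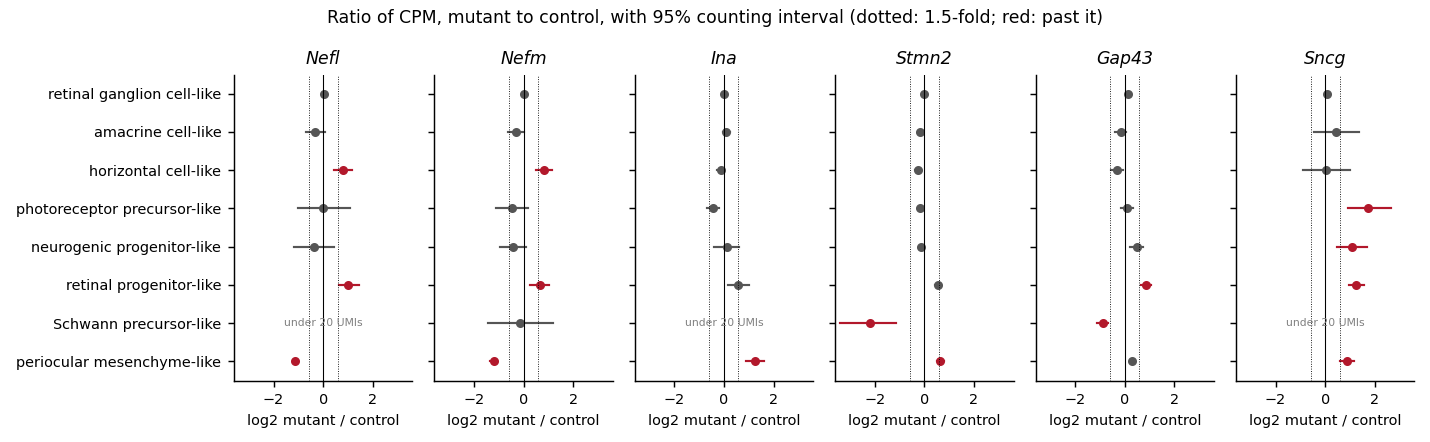
Mutant-to-control log2 ratio of each gene in each class with at least 20 UMIs over both libraries, with exact 95% conditional intervals for counting error and lines at 1.5-fold. In ganglion cell-like cells the points of the 6 abundant genes lie between -0.02 and 0.12, and the points past the lines are in other classes.

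In horizontal-like cells Nefl gave 85 and 225 UMIs and Nefm 102 and 277 UMIs in the control and the mutant. The ratios were 1.73 (1.34 to 2.24) and 1.77 (1.41 to 2.24), and 10% of all genes were at least 1.5-fold higher and 7.07% at least 1.5-fold lower in this class. Few cells held these UMIs, since the 5 richest cells had 45.9% of the control and 40.4% of the mutant Nefl UMIs. The share of thinned cells with a UMI was nearly the same, at 21.3% (12.7 to 32.3) and 23.2% (15.8 to 32.1) for Nefl and 30.7% (20.5 to 42.4) and 32.1% (23.6 to 41.6) for Nefm. Without the 5 richest cells of each library the log2 ratios were 0.87 for Nefl and 0.70 for Nefm. Neither gene had a value with a mitochondrial limit of 5% or with cells over 2000 UMIs removed. Ina, Stmn2 and Gap43 stood at ratios of 0.912 (0.829 to 1.00), 0.845 (0.780 to 0.916) and 0.809 (0.688 to 0.952) in the same cells. Over the alternatives with a value, the log2 ratio ran from -0.96 to -0.19 for Stmn2 and from -0.68 to -0.22 for Gap43, past 1.5-fold at the low ends. For Ina it ran from -0.22 to -0.09.

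In retinal progenitor-like cells, 2372 in the control and 3525 in the mutant, the 6 measured genes were all higher in the mutant library and 4 passed 1.5-fold, where 3.45% of all genes were at least 1.5-fold higher and 2.12% lower. Sncg stood at 4.77 and 11.4 CPM, Nefl at 2.67 and 5.41 CPM, Gap43 at 10.3 and 18.8 CPM, and Nefm at 3.24 and 5.08 CPM. Thinned cells with a UMI were rare in both libraries, at 1.03% and 2.09% for Sncg and 0.559% and 0.930% for Nefl, against 1.31% and 1.24% for Sncg and 0.219% and 0.248% for Nefl in erythroid-like cells. The control level of Sncg was within the interval of its erythroid-like level of 5.13 CPM (3.65 to 7.01). Tubb3, a tubulin of differentiating neurons outside the 7 genes, was 1.95-fold (1.78 to 2.13) higher in the same mutant cells, and of 56 measured genes of the list of other axon genes described below 7 were at least 1.5-fold higher and 0 lower. The part of ganglion cell RNA or of ganglion cell-like doublets in these levels was not tested.

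Sncg was also higher in the mutant library in photoreceptor precursor-like cells, with 15 and 69 UMIs (4.48 and 14.8 CPM, where 3.99% of all genes were at least 1.5-fold higher and 4.43% lower), and in neurogenic progenitor-like cells, with 32 and 98 UMIs (4.28 and 9.06 CPM, where 3.08% were higher and 3.28% lower). Both control levels were within the erythroid-like interval given above and both mutant levels above the mutant erythroid-like interval of 2.85 to 6.12 CPM. With free RNA subtracted, Sncg had no value in these 2 classes or in retinal progenitor-like cells, because its control levels were under the control erythroid-like level of 5.13 CPM. Its 3 calls among the 8 could therefore not be formed under that alternative. The share of thinned photoreceptor precursor-like cells with a Sncg UMI was 1.73% (0.698 to 3.53) and 2.06% (1.07 to 3.57). Sncg levels in all of these classes were below 1% of those in ganglion cell-like cells.

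Schwann precursor-like cells, named from Sox10, Foxd3 and other markers, numbered 40 in the control and 38 in the mutant. Of the 7 genes, Gap43 was the one found in most of them, in 34 and 31 cells. It stood at 666 CPM (606 to 731) among control cells and 358 CPM (314 to 407) among mutant cells, and was 9.07- and 3.93-fold higher than in periocular mesenchyme-like cells, where 4.04% and 3.58% of all genes were at least 4-fold higher. The mutant-to-control ratio was 0.538 (0.458 to 0.631), and a Gap43 UMI was seen in 55% (38.5 to 70.7) and 26.3% (13.4 to 43.1) of thinned cells. Of all genes in the class, 10.4% were at least 1.5-fold lower in the mutant and 9.81% at least 1.5-fold higher. With cells that had an Xist UMI and no Y-linked UMI alone, the log2 ratio of Gap43 was -0.24 instead of -0.89 and no longer past 1.5-fold.

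The other 6 genes were sparse in Schwann precursor-like cells. Stmn2 had 41 control UMIs, of which 40 came from 1 cell, and 9 mutant UMIs, so its log2 ratio of -2.19 rested on that cell. Nefl had 11 control UMIs, all in 1 cell, and 8 mutant UMIs in 6 cells. Nefm had 12 and 11 UMIs in 3 and 4 cells, Ina 1 and 7 UMIs, and Sncg 2 and 16 UMIs. No Nefh UMI was found in either library. Of 41 measured genes of the list of other axon genes described below, 4 were at least 1.5-fold higher and 9 lower in the mutant Schwann precursor-like cells, beside 9.81% and 10.4% of all genes, and Tubb3, with 114 and 32 UMIs, was among the lower ones. Gap43 was thus the one of the 7 in the glial class seen in more than scattered cells.

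Light and medium neurofilament transcripts were also found in periocular mesenchyme-like cells, a pattern chosen for description after its values were seen. Nefl gave 2949 control and 1012 mutant UMIs there (67.9 and 31.1 CPM) and Nefm 1971 and 639 (45.4 and 19.6 CPM). Of the subunit UMIs in this class, Nefl held 58.8% and 55.7%, Nefm 39.3% and 35.2%, and Ina 1.85% and 9.14% (7.85 to 10.6). Cluster 20, led by Col3a1, Eln, Dlk1 and Osr2, held 576 control and 347 mutant cells and the highest levels, with Nefl at 243 and 117 CPM and Nefm at 161 and 69.7 CPM. In that cluster 26.8% (23.2 to 30.7) of control and 18.5% (14.5 to 23.1) of mutant thinned cells had a Nefl UMI, against 0.702% and 1.76% for Ina and 1.23% and 0.882% for Sncg.

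In cluster 20, the 194 control cells with at least 3 Nefl UMIs also held Nefm at 330 CPM (309 to 352), against 24.4 CPM (18.9 to 31.0) in the 253 control cells without a Nefl UMI. In these control cells Ina stood at 3.24 CPM (1.48 to 6.15) with Nefl and 4.00 CPM (2.00 to 7.16) without it, Sncg at 5.04 and 5.09 CPM, Gap43 at 80.3 (70.1 to 91.5) and 63.3 (54.3 to 73.5) CPM, Stmn2 at 18.7 and 67.0 CPM, and Tubb3, the neuronal tubulin, at 17.6 and 12.7 CPM. The collagen gene Col3a1 stood at 3942 and 4045 CPM and the Schwann cell gene Sox10 had no UMI in either set. In the mutant, the 66 such cells held Nefm at 182 CPM, Ina at 10.7 CPM (5.36 to 19.2), Gap43 at 93.6 CPM (75.8 to 114) and Tubb3 at 86.8 CPM, against 19.3, 4.58, 60.5 and 66.6 CPM in the 190 cells without Nefl. Stmn2 stood at 41.9 CPM with Nefl and 62.0 CPM without it, and Sncg at 6.83 and 6.10 CPM. Over all mutant mesenchyme-like cells Ina, Sncg, Stmn2 and Tubb3 were higher with Nefl, in 117 cells, than without it, in 1815 cells. Ina stood at 25.9 CPM (19.3 to 34.1) against 3.14 CPM (2.50 to 3.89), Sncg at 14.7 against 6.69 CPM, Stmn2 at 51.9 against 21.3 CPM and Tubb3 at 71.7 against 29.7 CPM. In the control class the same values were 3.13 against 2.00 CPM for Ina, 4.69 against 3.91 CPM for Sncg, 14.1 against 12.5 CPM for Stmn2 and 14.1 against 10.7 CPM for Tubb3. Nefl and Nefm were thus found together in collagen-rich cells of both libraries, and in the mutant class Ina and Sncg were higher in those cells too. The part of neuronal RNA or doublets in these levels was not tested.

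Both genes were lower in the mutant library in this class, at 0.457 (0.425 to 0.491) for Nefl and 0.432 (0.394 to 0.472) for Nefm, where 2.71% of all genes were at least 1.5-fold lower. With only cells that had an Xist UMI and no Y-linked UMI, the log2 ratios were -1.28 for Nefl and -1.55 for Nefm. With cells over 2000 UMIs removed, on 22 and 35 UMIs of Nefl and 14 and 24 of Nefm, the log2 ratios were 0.53 and 0.64. Of the other measured genes, Ina (2.14 and 5.09 CPM), Stmn2 (15.6 and 24.3 CPM) and Sncg (4.08 and 7.49 CPM) were at least 1.5-fold higher in the mutant, where 6.19% of all genes were. The control levels of Stmn2 and Sncg were near their erythroid-like levels, and Sncg had no value with free RNA subtracted. The log2 ratio of Stmn2 (0.64) was 0.08 and that of Ina 0.54 without doublet removal, and they were 0.19 and 0.46 with only cells that had an Xist UMI and no Y-linked UMI, all under 1.5-fold. Gap43 stood at 73.4 and 91.1 CPM and was highest in another mesenchyme cluster, cluster 8, led by Dcn, Col1a1 and Matn4, at 155 and 180 CPM. Nefl gave 64 and 32 UMIs in cluster 8, so Gap43 and Nefl were highest in different mesenchyme-like cells.

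**Figure D5:**
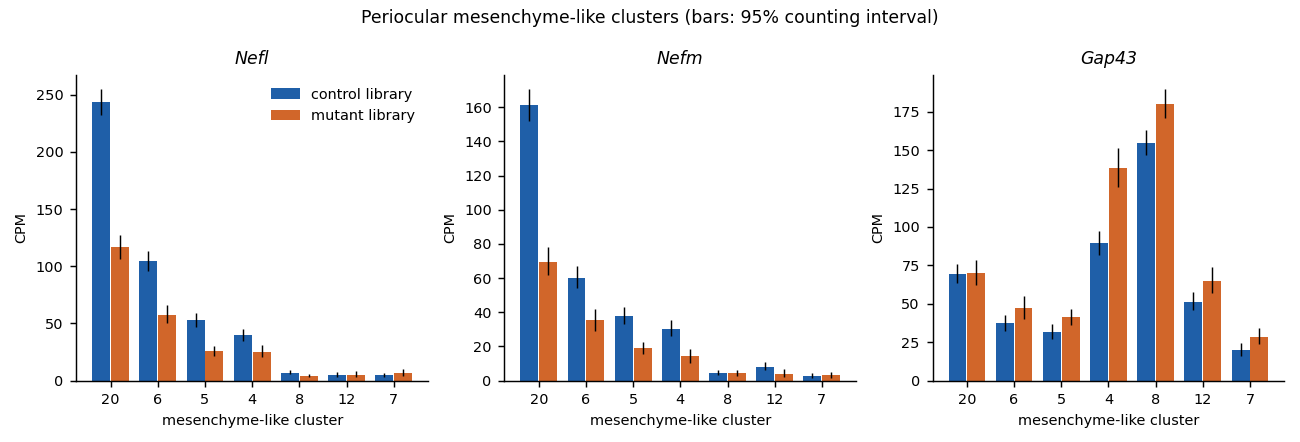
Level of the genes in each periocular mesenchyme-like cluster and library, as CPM with exact 95% Poisson intervals. Nefl and Nefm are highest in cluster 20 (243 and 161 CPM in the control) and Gap43 in cluster 8 (155 CPM in the control).

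A list of 61 other axon and neuronal cytoskeleton genes in 9 groups was set beside the 7. In ganglion cell-like cells 57 of these were measured, with 0 at least 1.5-fold higher and 2 at least 1.5-fold lower in the mutant, beside 3.95% and 2.94% of all genes, so the count was near the share over all genes, and the median log2 ratio was 0.02. The 2 were the intermediate filament genes Prph and Krt18. Prph, the peripherin of peripheral and some central neurons, gave 128 control UMIs, of which 88 came from 1 cell, and 19 mutant UMIs. Krt18, an epithelial keratin, gave 52 and 17 UMIs. Among adhesion proteins of axons, Cntn2 stood at 208 and 238 CPM and L1cam at 86.8 and 106 CPM, both under 1.5-fold, and the axonal motor Kif5a stood at 99.0 and 96.7 CPM.

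Against the other retinal neuron-like classes, 12 of 56 measured genes of the list were at least 4-fold higher in ganglion cell-like cells in the control and 13 of 57 in the mutant, beside 3.15% and 3.06% of all genes. Cntn2, an adhesion molecule of axons, had log2 ratios of 6.79 and 6.16, the largest of the list apart from Chl1, which had no UMI in the other classes. Sncb, the beta-synuclein gene, stood at 4.95 and 4.03 CPM against 6.58 and 8.84 CPM. Among stathmins, Stmn3 was closest to Stmn2 with log2 ratios of 2.19 and 2.15, and Stmn1 had 0.80 and 0.93. Basp1 and Marcks, growth cone membrane proteins grouped with Gap43, had log2 ratios of 1.16 and 1.16 and of -0.35 and -0.27.

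The genes whose levels ran most like each of the 7 were found over 72 pools, each of them the cells of 1 cluster and 1 library with at least 50 cells, by the Pearson correlation of log2(CPM + 10) over 14034 genes, as a description across pools that share libraries. Among the 7, Nefl was closest to Nefm (0.971) and Gap43 to Nefm (0.885). Outside the 7, Nefl was closest to Syt13 (0.872), Tubb4a and Trim67. Outside the 7, Nefm was closest to Mapt (0.888), Ina to Actl6b (0.970) and Fbll1, Stmn2 to Crmp1 (0.981), Stmn3 and Tubb3, Gap43 to Trim67 (0.857), and Sncg to Syt13 (0.906). Between members, Stmn2 was closer to Ina (0.906) than to Nefl (0.622) or Sncg (0.618). Nefh had too few UMIs to be placed.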

How the data were processed

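Single-cell libraries of e15.5 eye cups, 1 per genotype, were read with 10x Genomics 3′ chemistry. The deposited values are UMI counts per gene and barcode, which the authors obtained with Cell Ranger on mm10; the submitters' processing notes name Cell Ranger 7.1.0 and Seurat 4.1.1, whereas the matrix header gives software version 3.1.0. The filtered matrices held every barcode, without the study's limit of 2000 UMIs, which 79.1% of control barcodes exceeded and which was used here as an alternative only.

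The 7 genes, the markers and the list of other axon genes were chosen with earlier results of these data known. Cells with at least 200 genes and at most 15% mitochondrial UMIs were kept, and Scrublet calls were removed (398 control barcodes, 3.33%, and 350 mutant barcodes, 2.69%, under the shares expected from loading). The cells were clustered with scanpy 1.11.5 and leidenalg 0.10.2 (1955 variable genes, 30 principal components, 15 neighbours, resolution 1) without the 7 genes, the axon list, Xist, Y-linked, mitochondrial and hemoglobin genes. Clusters were named from marker lists, so class names are rebuilt, not the authors', and the score limits were set after the data were seen.

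UMIs were summed per class and library and divided by the class total. Ratios were formed for genes with at least 20 UMIs over both pools, with exact Poisson, conditional binomial and Clopper-Pearson 95% intervals (scipy 1.17.1). No gene count model was fitted, because each group was 1 library. A ratio was counted at 1.5-fold between genotypes and 4-fold between classes, and the share of all genes past it stands beside each count. For cell shares and the order, cells were thinned to 2000 UMIs. The genes named are the 7, any of the axon list, and for each of the 7 the 3 genes most like it over pools. The mesenchyme-like class was added after its values were seen. The ratio and interval code was tested on simulated data. Alternatives covered doublets, cell filters, clustering resolution, free RNA, sex, the richest cells, weighting, scaling, thinning depth and bins, and 2 were added after seeing the data. Gene coordinates came from GENCODE M21 (GRCm38) by gene identifier, and upstream sequences from RefSeq (GRCm38.p6).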

Additional observations from a re-analysis of the deposited data

Results flagged for a closer look

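Nefl and Nefm differed between the libraries in opposite directions in different classes. The mutant-to-control log2 ratio of Nefl was 0.79 in horizontal-like cells and 1.02 in retinal progenitor-like cells but -1.13 in periocular mesenchyme-like cells. For Nefm the same ratios were 0.82, 0.65 and -1.21. Stmn2 was higher in the mutant in mesenchyme-like cells (0.64) and lower in Schwann precursor-like cells (-2.19), where 40 of its 41 control UMIs came from 1 cell. Gap43 was higher in retinal progenitor-like cells (0.86) and lower in Schwann precursor-like cells (-0.89). The differences between classes were not tested, since each genotype had 1 library.

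Outside the 7 genes, 41.8% of the kept mutant cells had a Y-linked UMI, against 0.026% of control cells, so the libraries differed in sex makeup as well as genotype.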

How the results depend on the processing

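Between the genotypes, the median log2 ratio of the 7 genes in ganglion cell-like cells (0.00) was -0.12 without doublet removal, -0.043 with a mitochondrial limit of 5%, -0.068 with at least 1000 genes per cell, and -0.069 and -0.055 at Leiden resolutions of 0.5 and 2. With the limit of 5% Nefh had no value, so that median left it out. In Schwann precursor-like cells the median (-0.89) was -0.58 with free RNA subtracted and -1.85 with only cells that had Xist and no Y-linked UMI. It rested on 3 genes, and on 2 under each of these settings, since Stmn2 had no value in the first and Nefm none in the second, where Stmn2 stood at -3.47 and Gap43 at -0.24. Nefl and Nefm in mesenchyme-like cells were reversed, at 0.53 and 0.64, with cells over 2000 UMIs removed. Pairs past 1.5-fold numbered 10 to 15 under all alternatives.

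The median log2 ratio of ganglion cell-like to other retinal neuron-like cells was 4.45 in the control and 4.43 in the mutant. In the control it was 4.93 without doublet removal, 4.99 with the limit of 5%, 5.02 with at least 1000 genes, 3.95 with cells over 2000 UMIs removed, 4.75 and 4.84 at resolutions of 0.5 and 2, 4.60 without the 5 richest cells, 4.26 as the mean of per-cell CPM and 4.66 scaled by the median ratio. In the mutant it was 4.75, 5.29, 5.10, 3.12, 4.74, 4.75, 4.68, 4.26 and 4.63 under the same settings, 4.55 with cells over 20000 UMIs removed and 4.90 with Xist cells only. The Ina share of the subunits (33.5 and 32.9%) was 31.1 and 31.7% with cells over 20000 UMIs removed, 30.7 and 34.5% with cells over 2000 removed, and 31.0% in the mutant with Xist cells only.

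The median log2 span from first to last bin (6.44 and 6.04) was 1.94 and 2.05 without doublet removal, with 1047 ordered cells, 7.58 and 6.93 with cells thinned to 5000 UMIs, 4.85 and 3.98 with 3 bins, and 5.08 in the control with cells of at least 10000 UMIs, a setting chosen after seeing the data. The cause of these shifts was not tested.

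Among values for a single gene, 438 recomputed ones lay inside the counting interval, 175 outside it, and 2 past 1.5-fold changed sign. No paired analysis was possible because each genotype had 1 library, and no replicate could be left out. With cells over 2000 UMIs removed, no Schwann precursor-like class was found. With a mitochondrial limit of 5%, none of the genes had a value in horizontal-like cells. Depth limits Nefh, with 13 and 12 UMIs, and the Schwann precursor-like class, with 40 and 38 cells.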
